A study of Mus musculus with 42 samples.

Results

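Small nucleolar RNA host genes make spliced, mostly non-coding RNAs whose introns hold small nucleolar RNAs (snoRNAs). The 8 host genes described here are Gas5, Snhg1, Snhg3, Snhg4, Snhg5, Snhg6, Snhg8 and Snhg12, taken by symbol from the 47729 genes of a table deposited for mouse tumours. The set was chosen by name, with earlier values of the day 14 tumours of this table in view. The tumours grew under the skin of C57BL/6 mice from Pan02 cells, a mouse pancreatic adenocarcinoma line, and 42 tumours in 14 groups of 3, each from its own animal, were sequenced as bulk RNA. Vehicle mice, dosed with PBS, gave tumours at 0 h on days 1, 7 and 14. BXCL701 mice received 20 ug per mouse once daily by oral gavage and gave tumours at 1, 8 and 16 h on day 1, after a single dose, and at 0, 1, 8 and 16 h on days 7 and 14. BXCL701 (talabostat) is an oral inhibitor of serine peptidases of the DPP4 family, among them DPP8, DPP9 and fibroblast activation protein. The tumours come from a single implanted line, the host animals kept their own immune cells, and the vehicle groups are all at 0 h, so at later hours treatment and hour cannot be told apart.

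A snoRNA host transcript is spliced, its introns are trimmed, and the snoRNAs released from them guide the methylation or pseudouridylation of ribosomal RNA in the nucleolus. The spliced exons that are left over are often short-lived: many are bound by ribosomes and removed by nonsense-mediated decay, and in Gas5 and related genes transcription starts in a stretch of pyrimidines, the 5′ terminal oligopyrimidine (TOP) start that ribosomal protein mRNAs also carry. Gas5 was named for its accumulation in growth-arrested cells, and its RNA has been described as a decoy for the glucocorticoid receptor.

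All values are estimated reads per gene scaled per library, called level below, and differences are on the log2(level + 1) scale. The 8 host genes reached the minimum level of 10 in all 42 libraries, and 16613 genes in all were tested. The scaled library totals lay between 19133000 and 26633000, and the true sequencing depth is unknown. Keratins and adhesion genes of the carcinoma cell were present in every tumour, with Krt8, a simple epithelial keratin, at 9774 to 45922, but Epcam, an epithelial adhesion molecule, lay at only 1.67 to 269.1. Markers of neighbouring tissue varied widely: the mean log2 level of 8 skeletal muscle markers lay between 2.46 and 14.56, and that of 8 keratinocyte markers between 2.36 and 10.35. Libraries also differed in how far short transcripts were represented against long ones. This is given as a transcript-length index, the slope of each gene's deviation on log2 exon length, which was lowest at -0.41 in replicate 3 of BXCL701 day 7 at 8 h and highest at 0.33 in replicate 2 of vehicle day 7. In bulk RNA, fewer cells of a type and less RNA per cell cannot be told apart.

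Gas5 (ENSMUSG00000053332) lies on chromosome 1 of GRCm38 at chr1:161034422-161038539 on the plus strand, and 10 snoRNA records of GENCODE M21 lie in its introns, more than in any other of the 8. Snhg1 (chr19:8723475-8726443, plus strand) holds 8, Snhg12 (chr4:132308623-132311024, plus strand) 5, and Snhg3 (chr4:132348014-132353686, minus strand) 2, Snora73a and Snora73b. Snhg5 (chr9:88521050-88522929, minus strand) carries Snord50a and Snord50b, Snhg6 (chr1:9941959-9944118, minus strand) carries Snord87, and Snhg8 (chr3:123507552-123508404, minus strand) carries Snora24. The identifier of Snhg4 is not among those of GENCODE M21, so its 2 records of type snoRNA, Snora74a and one that bears the name Mir1949, were placed by its RefSeq position and not by its exons. The other 29 of the 31 records were intronic in at least 1 transcript of their host, and Snord80 in Gas5 and Snora16a in Snhg12 each have 2 records at nearly the same place. All 31 records have a row in the table, but only Snora73a, at up to 2.10, and Snora73b, at up to 1.26, reached a level of 1 in any library. The values below are those of the host gene rows. Merged over transcripts, the exons of Snhg1, Snhg8 and Snhg12 form 1 block each, which covers the positions of their snoRNAs. In Gas5 the merged exons come to 3760 bases in 3 blocks, which leaves too little of the gene outside them to hold all its snoRNAs. How reads were assigned there is not given, so snoRNA rows at or near 0 do not show that mature snoRNAs were absent. The host Snhg3 overlaps Rcc1 on the same strand, Gas5 overlaps Zbtb37 and Snhg6 overlaps Mcmdc2 on the opposite strand, and since it is not given whether the counting used strand, reads in those overlaps cannot be assigned with certainty. The same holds for Snhg4, whose RefSeq position lies across the GENCODE records AC121821.1, a processed transcript, and Gm28285, a protein-coding gene.

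The start sites of 6 of the 8 genes are in the RefSeq promoter table (GRCm38.p6), and they are shown because the pyrimidine start is the feature the hosts are known to share with ribosomal protein genes. Each line gives 30 bases before to 30 bases from the start site on the gene's strand, 5′ to 3′, with the longest unbroken run of C or T lying within 10 bases before to 20 bases after the start in capitals. Gas5 has 2 listed starts, and Snhg4 and Snhg6 have no entry.
Gas5, first start, chr1:161034571-161034630: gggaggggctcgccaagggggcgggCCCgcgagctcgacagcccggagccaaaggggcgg
Gas5, second start, chr1:161035136-161035195: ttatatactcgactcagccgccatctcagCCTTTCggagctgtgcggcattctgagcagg
Snhg1, chr19:8723457-8723516: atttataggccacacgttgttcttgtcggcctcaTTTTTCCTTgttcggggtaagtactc
Snhg3, chr4:132353657-132353716: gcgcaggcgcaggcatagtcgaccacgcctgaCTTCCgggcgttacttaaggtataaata
Snhg5, chr9:88522868-88522927: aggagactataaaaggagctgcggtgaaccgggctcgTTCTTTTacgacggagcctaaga
Snhg8, chr3:123508307-123508366: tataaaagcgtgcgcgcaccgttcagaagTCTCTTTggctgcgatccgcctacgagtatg
Snhg12, chr4:132308648-132308707: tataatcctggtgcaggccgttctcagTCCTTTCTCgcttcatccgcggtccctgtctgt

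The run was 9 bases long in Snhg1 and Snhg12, a length that 7.1% of the 32851 promoters in the table reach, and 7 bases in Snhg5 and Snhg8, which 17.9% reach. At the second Gas5 start it was 6 bases (28.7% of promoters), at Snhg3 5 bases (46.4%) and at the first Gas5 start 3 bases (88.3%). Only at the second Gas5 start, Snhg8 and Snhg12 did the run lie across the start site. With the start site as base 1, it began at base 5 in Snhg1, 3 in Snhg3 and 8 in Snhg5. At the first Gas5 start it ended before the start site. Among 58 ribosomal protein genes with an entry the median run was 7 bases, against 4 over all promoters. For the ribosomal protein genes the longest run over each gene's listed starts was taken, whereas all promoters were counted singly. The medians are thus not on a like footing. The letters TATA, searched on the gene's strand 40 to 21 bases before the start, were present in Snhg1, Snhg8, Snhg12 and the second Gas5 start, and in 5.3% of all promoters. In Snhg5 the letters straddle the edge of that window nearest the start and were not counted. A match describes the letters only.

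The 8 genes differed widely in abundance. Compared per length, as the authors' log2 FPKM, Gas5 was the most abundant with a median of 8.93 over the 42 tumours (8.56 to 10.04) and Snhg4 the least with 3.02 (1.80 to 3.59). Between them came Snhg8 at 6.73, Snhg6 at 6.36, Snhg1 at 6.35, Snhg12 at 5.55, Snhg3 at 5.14 and Snhg5 at 4.66. The ranges of each neighbouring pair from Snhg8 to Snhg5 overlapped, whereas the lowest Gas5 tumour lay above the highest Snhg8 tumour, at 7.70, and the highest Snhg4 tumour lay below the lowest Snhg5 tumour, at 4.33. In the table of scaled reads, the mean of Gas5 was at percentile 93.3 of all genes tested, and those of the other 7 lay between percentiles 35.4 and 65.1.

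Vehicle tumours on day 14 stood at the top. All 8 host genes had their highest group mean there, which holds for 11.7% of all genes tested, and 7 of the 8, all but Snhg12, had their highest single tumour in replicate 2 of that group, as did 11.3% of all genes. Earlier results of the day 14 tumours were known when these genes were listed. The comparisons of day 14 with vehicle or with another day are therefore a description and carry no p-value. Day 14 tumours do enter 3 kinds of test below. These are the hour comparisons pooled over days, the hour steps compared between days, and the correlations over 42 tumours. Gas5, the most abundant host, was at 5293, 7424 and 3848 in the 3 vehicle tumours and between 3044 and 3938 in the 12 BXCL701 tumours (median 3373). Only 1 of the 12 treated tumours reached the lowest vehicle tumour. The log2 difference, BXCL701 minus vehicle, was -0.63 ± 0.12 (SE), and -0.39 without vehicle replicate 2. Snhg8, host of a single H/ACA snoRNA, was at 720.5, 962.9 and 551.1 in vehicle and between 325.2 and 555.9 in BXCL701 tumours (median 441.1), with a difference of -0.75 ± 0.17. Snhg6 was at 431.8, 762.3 and 511.7 in vehicle and between 258.0 and 442.3 in BXCL701 tumours, a difference of -0.69 ± 0.14 that was -0.46 without vehicle replicate 2. For both, 11 of the 12 treated tumours lay below all vehicle tumours.

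**Figure D1:**
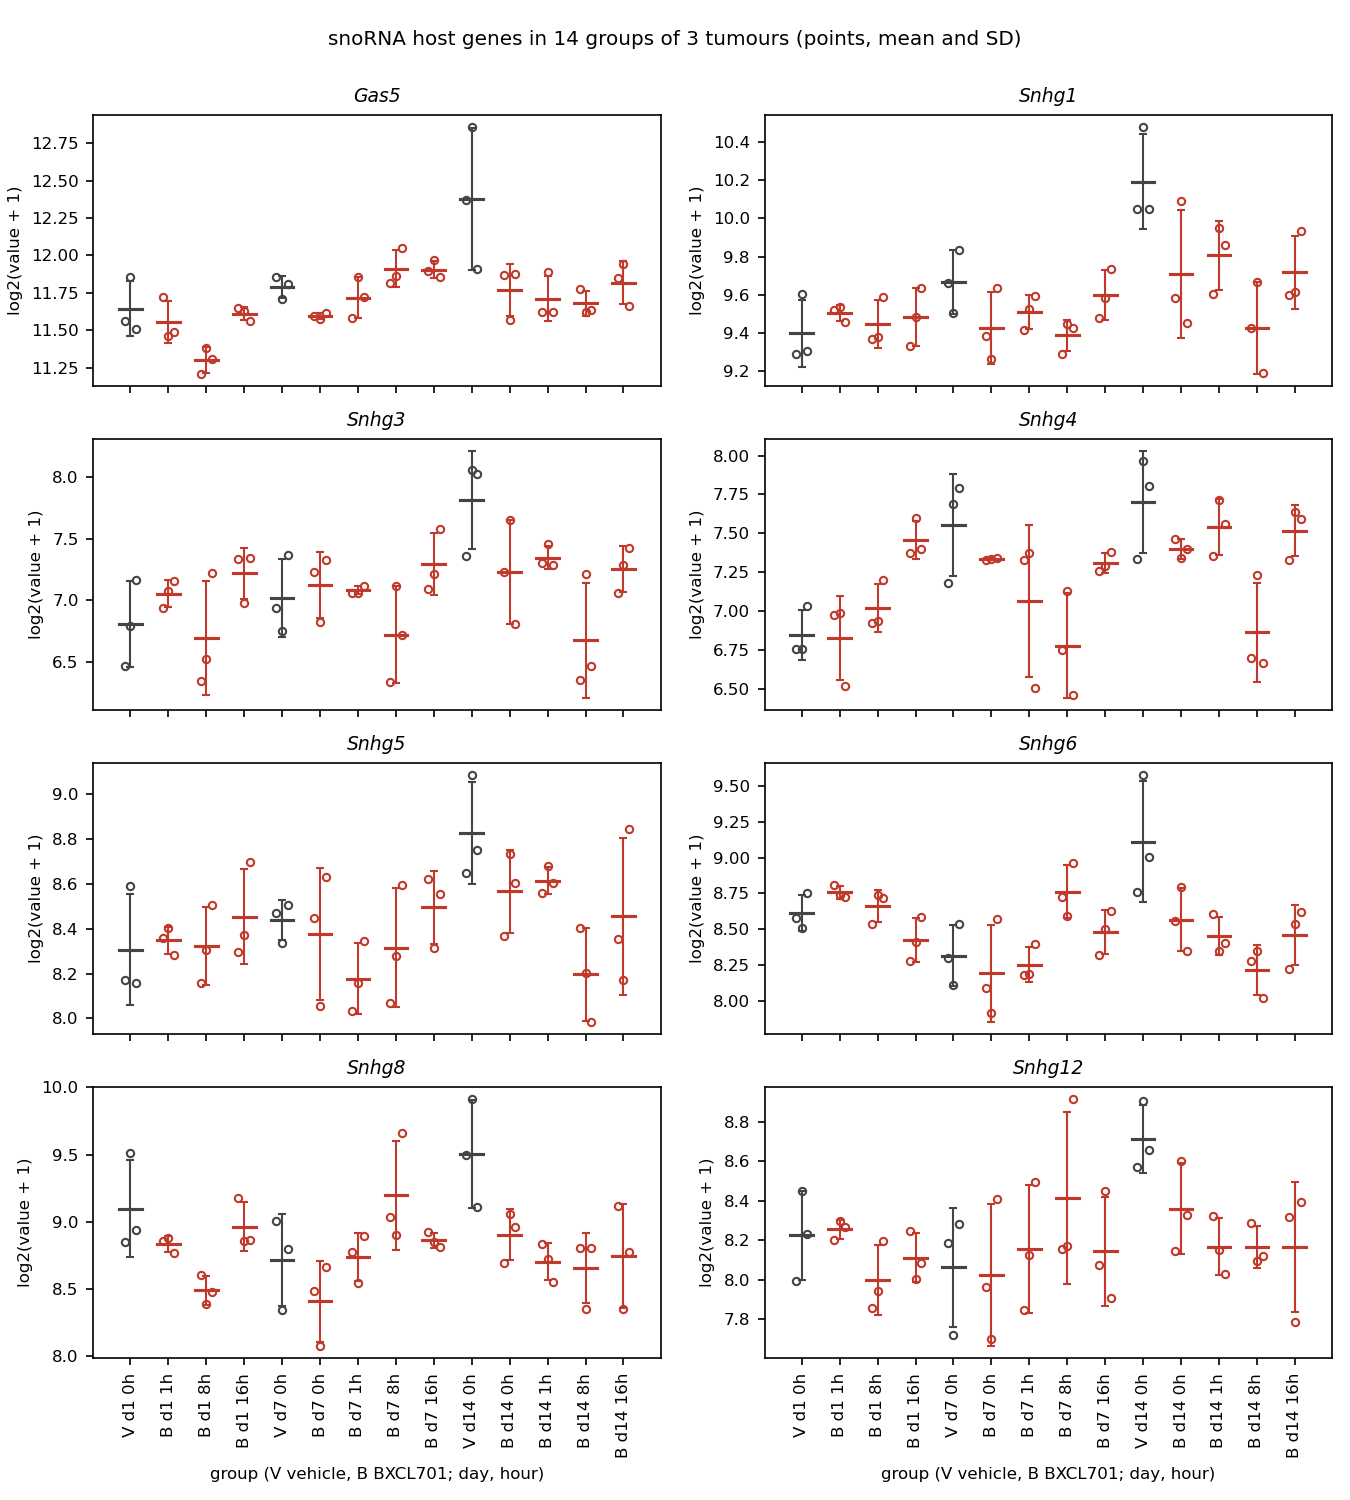
Level of each of the 8 host genes, as log2(level + 1), in 14 groups of 3 tumours (V vehicle, dark grey; B BXCL701, red; day and hour on the x axis); points are tumours, bars the mean and the SD, and the y axes differ between genes. In every panel the highest group mean is that of vehicle on day 14, and for 7 genes the highest point is the same tumour.

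The other 5 genes also lay lower in the treated tumours. Snhg3 was at 163.0, 265.9 and 259.9 in day 14 vehicle and between 80.9 and 199.8 under BXCL701, a difference of -0.69 ± 0.21, with 9 of 12 treated tumours below all vehicle tumours. Snhg1, the host with the second largest set of snoRNAs, was at 1058, 1426 and 1058 against 582.8 to 1089 (-0.53 ± 0.12, 11 of 12 below). Snhg12 was at 379.3, 478.7 and 402.8 against 219.7 to 387.5 (-0.50 ± 0.17, 11 of 12 below). The smallest differences were those of Snhg4, at -0.37 ± 0.17 with only 4 of 12 tumours below all vehicle tumours, and Snhg5, at -0.37 ± 0.14 with 9 of 12; without vehicle replicate 2 both were -0.24. In none of the 8 did the groups separate fully; among all genes, 0.476% lay wholly lower and 0.843% wholly higher under BXCL701. The median difference of the 8 was -0.58 beside -0.01 over all genes, and -0.40 without vehicle replicate 2. In this comparison 3.29% of all genes passed limma's adjusted p of 0.05, in number 547, but the count was 1 without vehicle replicate 2 and 2021 without vehicle replicate 3.

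At 0 h on day 14, where treatment and vehicle are matched in hour, the 8 differences were -0.26 to -0.61 with a median of -0.51 (-0.33 without vehicle replicate 2). Gas5 (3735, 3044 and 3758 under BXCL701) and Snhg8 (412.9, 533.0 and 497.1) lay below all 3 vehicle tumours, as did 5.42% of all genes. The vehicle tumours of day 14 also differed from the earlier vehicle tumours. Against day 7 (Gas5 at 3698, 3346 and 3580), 6 of the 8 genes lay wholly higher on day 14, all but Snhg3 and Snhg4, beside 8.2% of all genes, with a median difference of 0.62. Against day 1 (Gas5 at 3026, 3699 and 2920), 7 lay wholly higher, all but Snhg8, beside 4.21% of all genes, with a median difference of 0.63. Under BXCL701 the 8 genes differed little between days 14 and 7, by -0.05 (Snhg8) to 0.21 (Snhg4), and 0 of the 8 separated, as for all other genes tested (0% in either direction). The comparisons with vehicle on day 14 share its 3 tumours and are not independent of one another.

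Other measures moved with day 14 vehicle. The mean log2 level of 79 cytosolic ribosomal protein genes was 14.00 ± 0.37 (SD, n = 3) there and 13.45 to 13.69 in the 4 BXCL701 groups of day 14, and replicate 2 had the second highest value of all 42 tumours, 14.44. The transcript-length index was -0.07 ± 0.09 (SD, n = 3) in vehicle and -0.04 to 0.06 in the BXCL701 groups. With that index in the model the 8 differences were -0.28 to -0.64 (median -0.54), and with the levels of the muscle and keratinocyte markers as covariates they were -0.34 to -0.77 (median -0.56), so the direction held in both fits. Markers of immune cells were higher in BXCL701 tumours on day 14: all 8 neutrophil markers, with a median log2 difference of 1.41, all 7 T cell markers (1.07) and all 7 macrophage markers (0.48). The mean log2 level of the neutrophil markers was 5.57 to 5.68 in vehicle and 6.68 to 8.29 in BXCL701 tumours, and Ly6g and Ngp, defining neutrophil genes, had mean log2 levels of only 0.43 and 0.94 in vehicle. Their part in the host gene values was not tested.

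**Figure D2:**
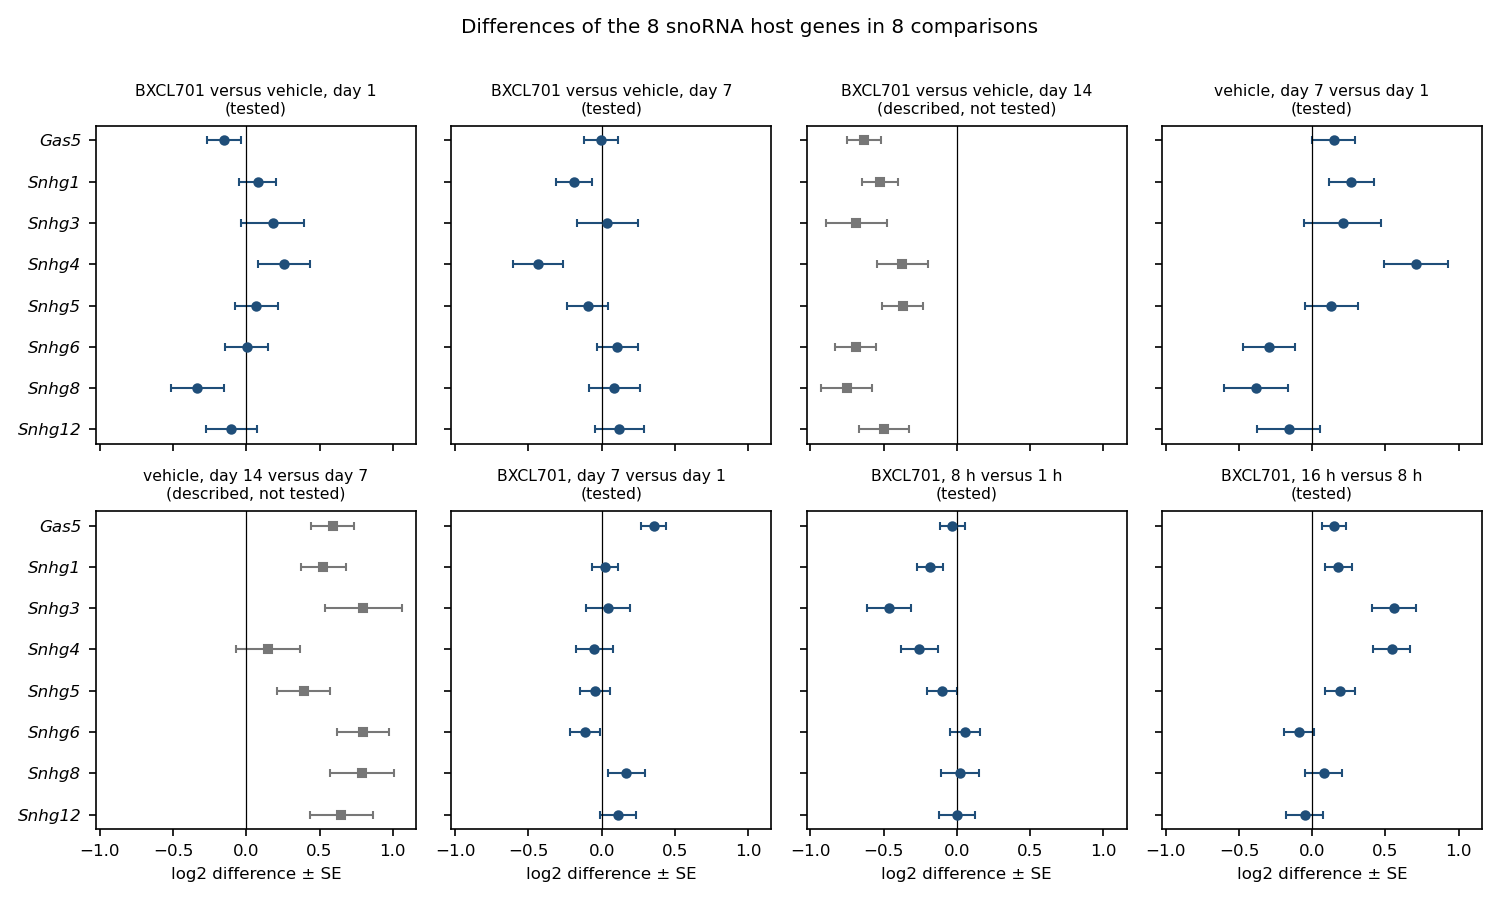
Log2 difference ± SE of each host gene in 8 comparisons, each against a line at 0; blue circles are comparisons with a test and grey squares those given as a description. The 8 points lie left of 0 in BXCL701 versus vehicle on day 14 and right of 0 in vehicle day 14 versus day 7, and they scatter to both sides in the comparisons of days 1 and 7.

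Before day 14 no treatment difference of the host genes passed. On day 1, the mean of the 1, 8 and 16 h tumours minus vehicle lay between -0.34 ± 0.18 (Snhg8) and 0.25 ± 0.18 (Snhg4), with 5 genes positive and 3 negative. By limma 0 of the 8 passed and 0 had an unadjusted p below 0.05 (all genes: 0% called, 437 at an unadjusted p below 0.05). Snhg8 was at 459.4, 728.1 and 490.1 in vehicle and between 333.5 and 577.8 in the 9 treated tumours, which overlap widely, and its difference was -0.13 without vehicle replicate 2. On day 7 the 8 differences were -0.43 to 0.12 with a median of 0.02, which turned to -0.15 with the length index in the model, and 0 of the 8 passed, beside 0.00602% of all genes. Snhg4 had the largest, -0.43 ± 0.17 (limma, adjusted p = 0.487, unadjusted p = 0.0172). It was the only 1 of the 8 at an unadjusted p below 0.05, a mark that 1640 of all 16613 genes reached. It was at 144.1, 205.1 and 221.0 in vehicle and between 87.0 and 165.5 in the 12 treated tumours, all 12 below the vehicle median and 4 below every vehicle tumour. Gas5 was at -0.01 ± 0.12, with a 95% interval of -0.24 to 0.23.

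The hour-matched treatment comparison on day 7 gave a tight separation of Gas5 and nothing that passed. At 0 h Gas5 was at 3095, 3053 and 3141 under BXCL701 and at 3698, 3346 and 3580 in vehicle. The treated tumours all lay lower, as they did for 3.1% of all genes, and the log2 difference was -0.19 ± 0.15 (limma, adjusted p = 1). The 3 treated values lie close together, while the SE is pooled over all 14 groups. The other 7 genes overlapped, with differences of -0.31 to 0.11, and 0 of the 8 passed by limma or had an unadjusted p below 0.05 (all genes: 0% called, 357 at an unadjusted p below 0.05). The size of the treatment difference was also compared between days 7 and 1 directly, and no host gene passed (limma, lowest adjusted p = 0.323, Snhg4).

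With time in vehicle, from day 1 to day 7, Snhg4 had the largest difference of the 8, which did not pass. It was at 106.9, 107.0 and 129.9 on day 1 and at 144.1, 205.1 and 221.0 on day 7, with no overlap, which held for 10.3% of all genes in that direction, a share near that of 1 in 8 hosts. The log2 difference was 0.71 ± 0.22 (limma, adjusted p = 0.263, unadjusted p = 0.00272), and 0% of all genes were called, with 3051 at an unadjusted p below 0.05. The other 7 differed by -0.38 ± 0.22 (Snhg8) to 0.27 ± 0.16 (Snhg1), with overlapping tumours, and 0 of those 7 had an unadjusted p below 0.05. All 8 skeletal muscle markers were lower in vehicle on day 7 than on day 1, with a median of -3.31 (mean log2 level 2.97 to 11.02 on day 7 and 10.08 to 12.17 on day 1), and the ribosomal protein level was 13.30 ± 0.25 on day 7 and 13.90 ± 0.45 on day 1 (SD, n = 3 each). Their part in the Snhg4 value was not tested.

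Under BXCL701 Gas5 was higher on day 7 than on day 1 at the same hours. On day 1 it was at 3372, 2824 and 2871 at 1 h, at 2371, 2671 and 2533 at 8 h and at 3205, 3166 and 3020 at 16 h. On day 7 it was at 3058, 3697 and 3379 at 1 h, at 3604, 3726 and 4242 at 8 h and at 3804, 4004 and 3706 at 16 h. Thus 8 of the 9 day 7 tumours lay above all 9 day 1 tumours, and the gap was widest at 8 h. The log2 difference was 0.35 ± 0.08 and just missed the threshold (limma, adjusted p = 0.0592), where 0.12% of all genes passed. Over 26 alternatives limma's adjusted p was 0.0146 to 0.212. It passed with median-of-ratios scaling (0.37, adjusted p = 0.043), with the length index added to the model (0.33, adjusted p = 0.0283), in a fit on the 18 tumours of the comparison alone (adjusted p = 0.0146) and without replicate 1 of day 1 at 16 h (adjusted p = 0.0441). With the muscle and keratinocyte levels as covariates it was 0.29 (limma, adjusted p = 0.212), and all 8 skeletal muscle markers were lower on day 7, with a median of -2.25 (mean log2 level 2.46 to 12.11 on day 7 and 7.15 to 12.41 on day 1). The 8 neutrophil markers were all higher on day 7 (median 0.95; 2 rose, S100a8 and S100a9), and their part in the Gas5 value was not tested. The other 7 host genes differed by -0.12 (Snhg6) to 0.17 (Snhg8), and 0 of those 7 had an unadjusted p below 0.05 by limma. Gas5 did, as did 2724 of all 16613 genes.

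By hour after the dose, with the days pooled, Snhg3 and Snhg4 differed most of the 8 host genes between 8 and 16 h. Snhg4 was at 120.3, 121.5 and 145.9 on day 1, at 106.3, 138.8 and 87.0 on day 7 and at 102.5, 149.3 and 100.4 on day 14 at 8 h. At 16 h it was at 165.0, 193.0 and 168.0, at 152.2, 155.2 and 165.5, and at 159.7, 197.7 and 191.6 on the same days. All 9 tumours at 16 h lay above all 9 at 8 h, a separation seen in that direction in 0.0241% of all genes. The log2 difference, 0.54 ± 0.13, did not pass (limma, adjusted p = 0.0586), where 0.229% of all genes passed. Over 26 alternatives limma's adjusted p was 0.0114 to 0.185. It passed with median-of-ratios scaling (0.57, adjusted p = 0.0347), with the length index in the model (0.54, adjusted p = 0.0114), and without replicate 2 of day 7 at 8 h (adjusted p = 0.0351) or replicate 2 of day 14 at 8 h (adjusted p = 0.0285), while the adjusted p was 0.185 on the 18 tumours alone.

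Snhg3, which hosts the pair of Snora73 genes, ranged from 79.9 to 148.1 at 8 h (median 91.0), from 125.4 to 190.1 at 16 h (median 154.8) and from 121.4 to 174.3 at 1 h (median 138.2). At 8 h 6 of the 9 tumours lay below all 9 tumours at 1 h. From 1 to 8 h the difference was -0.46 ± 0.15 (limma, adjusted p = 0.303), with 0.337% of all genes called, and from 8 to 16 h it was 0.56 ± 0.15 (limma, adjusted p = 0.177; 0.0473 to 0.450 over 26 alternatives, the lowest with the length index in the model). The 3 days gave differences of the same sign for Snhg3: -0.36, -0.36 and -0.67 from 1 to 8 h and 0.52, 0.57 and 0.58 from 8 to 16 h on days 1, 7 and 14. For Snhg4 the first step was 0.19 on day 1, -0.29 on day 7 and -0.68 on day 14, and the second was 0.44, 0.53 and 0.65. These steps were compared between days 7 and 1 and between days 14 and 7, and no host gene passed (limma, lowest adjusted p = 0.293). The steps of days 14 and 1 were not compared in a test. From 8 to 16 h the other 6 host genes differed by -0.09 (Snhg6) to 0.19 (Snhg5). From 1 to 8 h Snhg1 was at -0.19 ± 0.09 and Snhg4 at -0.26 ± 0.13 (unadjusted p = 0.0462 and 0.0479 by limma, adjusted p = 0.734 and 0.747), and the rest lay between -0.10 and 0.06. With Snhg3, 3 of the 8 had an unadjusted p below 0.05 by limma in that step, as had 1099 of all 16613 genes.

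**Figure D3:**
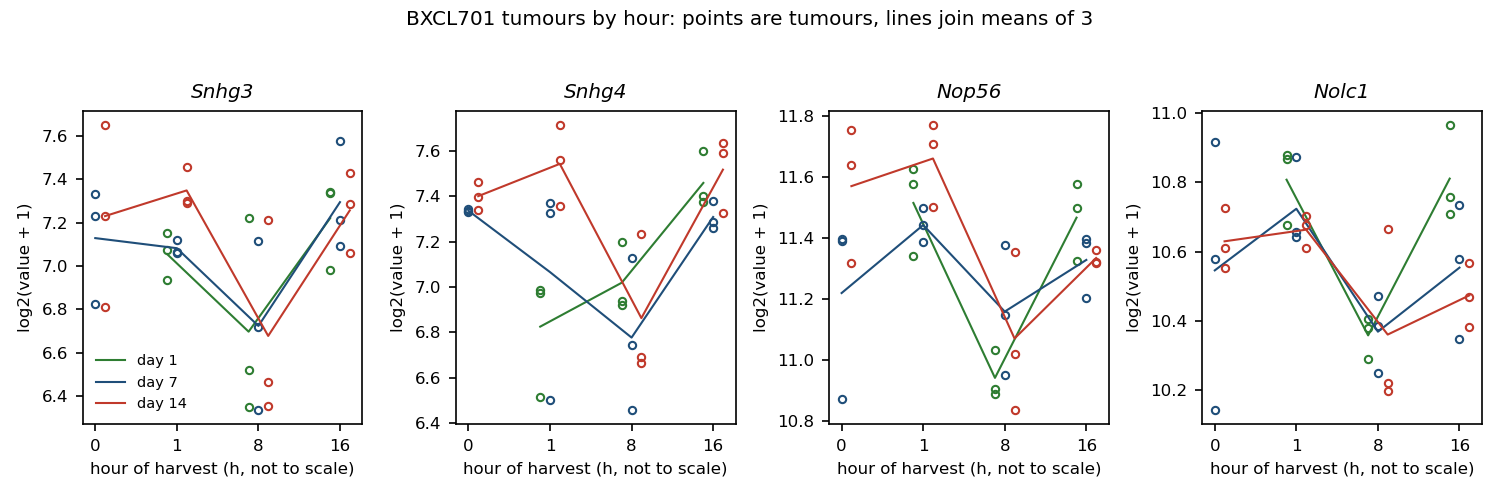
Log2(level + 1) of Snhg3, Snhg4, Nop56 and Nolc1 in BXCL701 tumours by hour of harvest; points are tumours, lines join the means of 3 tumours on days 1 (green), 7 (blue) and 14 (red), the hours are not to scale, and day 1 has no BXCL701 group at 0 h. Snhg3, Nop56 and Nolc1 have their lowest mean at 8 h on all 3 days, and Snhg4 on days 7 and 14.

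Between the other hours the host genes differed less. From 0 to 1 h on days 7 and 14 the 8 differences were -0.08 to 0.09, the narrowest spread of any comparison here with a test. By limma 0 of the 8 passed or had an unadjusted p below 0.05 (all genes: 0.012% called, 405 at an unadjusted p below 0.05). From 1 to 16 h they were -0.05 to 0.28, with 0 of the 8 passing (all genes: 0.114% called). Only Snhg4, at 0.28 ± 0.13, had an unadjusted p below 0.05 (limma, 0.0309, adjusted p = 0.730). Of all 16613 genes, 1104 had an unadjusted p below 0.05 there. With vehicle groups at 0 h only, an effect of the clock and one of the dose cannot be told apart at these hours.

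A few genes of snoRNPs and ribosome biogenesis fell from 1 to 8 h, 1 in each of the lists below, with Nop56 in more than 1 list. Nop56, a core protein of box C/D snoRNPs and itself a snoRNA host, fell by 0.48 ± 0.09 on the log2 scale from 1 to 8 h (limma, adjusted p = 0.00618). Its level was 2594 to 3490 at 1 h (median 2899), 1829 to 2656 at 8 h (median 2078) and 2358 to 3055 at 16 h (median 2630). Nolc1, the nucleolar chaperone of snoRNPs also known as Nopp140, fell by 0.37 ± 0.08 (limma, adjusted p = 0.0352), and Rrp12, a ribosome export factor, fell by 0.55 ± 0.11 (limma, adjusted p = 0.0133). Of 8 snoRNP core proteins 1 fell and 0 rose, and all 8 had a negative difference (median -0.22, beside 0.00 over all genes). Of 13 genes of ribosome biogenesis and Myc 1 fell and all 13 were negative (median -0.19), and of 10 assembly factors 1 fell and 6 were negative (median -0.04). Of 17 protein-coding snoRNA hosts only Nop56 passed, and 9 were positive (median 0.00). By day, the mean log2 level of the core proteins went from 10.77 at 1 h to 10.38 at 8 h on day 1 and from 10.79 to 10.44 on day 14, but was 10.62 and 10.60 on day 7, where the assembly factors were at 9.23 and 9.31. From 8 to 16 h none of these genes passed by limma, with all 8 core proteins and all 13 biogenesis genes positive (medians 0.20 and 0.18).

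Dancr, another non-coding snoRNA host, rose from 8 to 16 h by 0.69 ± 0.15 (limma, adjusted p = 0.0305), the 1 of 9 further non-coding hosts that passed at these hours. It ranged from 52.4 to 106.0 at 1 h, from 32.2 to 70.0 at 8 h and from 59.8 to 97.6 at 16 h. Some of the listed genes induced by glucocorticoids also differed by hour. Ddit4, an inhibitor of mTORC1 signalling, rose from 1 to 8 h by 1.26 ± 0.19 (limma, adjusted p = 0.000789), and Tsc22d3, the glucocorticoid-induced leucine zipper, fell by 1.32 ± 0.15 from 8 to 16 h (limma, adjusted p = 1.57e-06). Of the 12 genes in that list, 2 rose and 0 fell from 1 to 8 h, and 0 rose and 3 fell from 8 to 16 h. Skeletal muscle markers moved with the hour as well: all 8 were lower at 8 h than at 1 h (median -1.97) and lower at 16 h than at 8 h (median -0.60), with mean log2 levels of 6.82 to 14.56 at 1 h, 3.70 to 12.94 at 8 h and 2.46 to 12.11 at 16 h. Of the 8 neutrophil markers 2 rose from 8 to 16 h, S100a9 by 1.22 ± 0.21 and S100a8 by 1.07 ± 0.21 (limma, adjusted p = 0.00340 and 0.0127), and 6 were higher (median 0.38; mean log2 level 5.28 to 7.59 at 8 h and 5.97 to 7.496 at 16 h). The part of the neutrophil markers in the host gene values was not tested. With the muscle and keratinocyte levels as covariates the change from 8 to 16 h was 0.53 for Snhg4 (limma, adjusted p = 0.0802) and 0.56 for Snhg3 (adjusted p = 0.0954).

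Across the 42 tumours the host genes varied together only in part. Over the 28 pairs Pearson's r lay between -0.10 (Snhg4 with Snhg8) and 0.80 (Snhg1 with Snhg5, and Snhg8 with Snhg12), with a median of 0.54. Within groups, on deviations from the group means, the median was 0.29, and 5 of the 28 pairs were negative. Snhg3 and Snhg12, both on chromosome 4, had an r of 0.40, and Gas5 and Snhg6, both on chromosome 1, had 0.39. All values of one library share its depth and composition, so these coefficients are a description.

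Snhg8 and Snhg12 followed the ribosomal protein genes most closely, and Snhg4 had a negative correlation. Against the mean log2 level of the 79 ribosomal protein genes Snhg8 had a Pearson's r of 0.841 and a Spearman's rho of 0.724, and Snhg12 had 0.835 and 0.808 (permutation p = 1e-05 for each, the smallest that 100000 resamples can give; adjusted over the 8 genes 2.67e-05 and 4e-05). They kept r of 0.762 and 0.752 without the 2 tumours farthest from the median, and 0.799 and 0.845 within groups. Snhg6 had an r of 0.674 and a rho of 0.601 (permutation p = 1e-05 and 2e-05, adjusted 2.67e-05 and 5.33e-05), 0.545 without those 2 tumours and 0.546 within groups. Gas5 had an r of 0.473 (permutation p = 0.00252, adjusted 0.00504) and a rho of 0.281 (p = 0.0711, adjusted 0.0948), and r was 0.231 without the 2 farthest tumours, on which the pooled r rests, and 0.443 within groups. Snhg5 had an r of 0.439 (permutation p = 0.00379, adjusted 0.00606) and a rho of 0.332 (p = 0.0324, adjusted 0.0648), with r of 0.298 without the 2 farthest tumours and 0.662 within groups. Snhg4 ran the other way, with an r of -0.340 (permutation p = 0.0268, adjusted 0.0357) and a rho of -0.311 (p = 0.0462, adjusted 0.0739), and r was -0.44 without the 2 farthest tumours and -0.40 within groups. Snhg1 had an r of 0.287 (permutation p = 0.0662, adjusted 0.0757) and a rho of 0.167 (p = 0.290, adjusted 0.332). Snhg3 was the weakest, with an r of 0.153 (permutation p = 0.332, adjusted 0.332) and a rho of 0.088 (p = 0.58, adjusted 0.58). The permutations ran across the groups and included day 14 vehicle, so these p-values do not separate differences between groups from those between tumours. The values within groups carry no p-value.

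**Figure D4:**
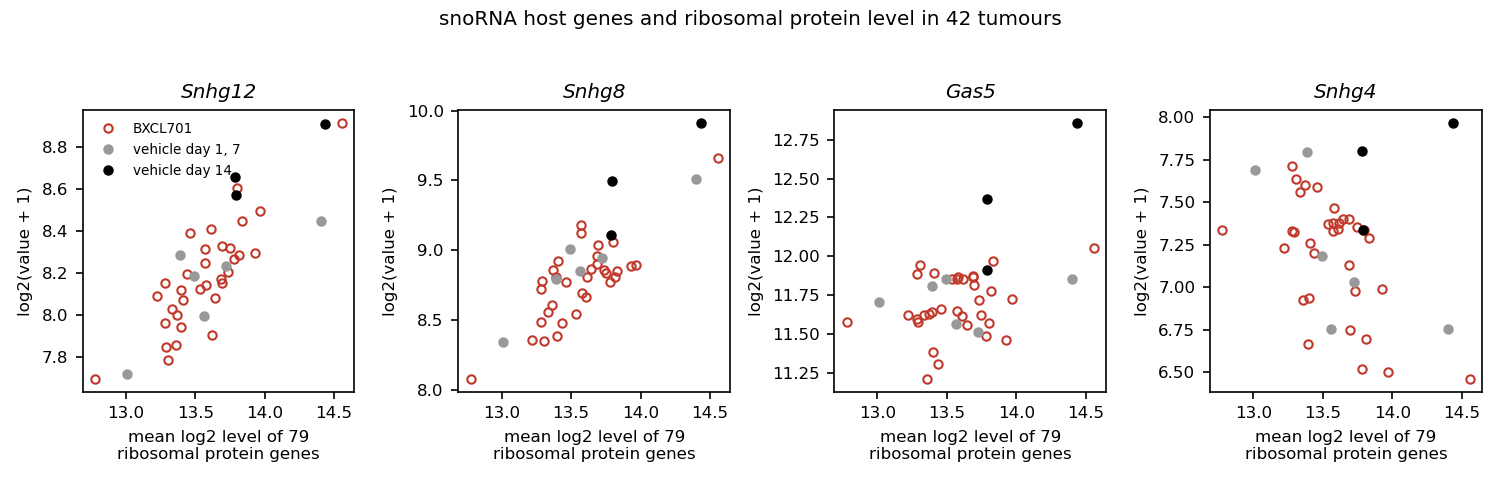
Log2(level + 1) of Snhg12, Snhg8, Gas5 and Snhg4 (y axis) against the mean log2 level of 79 ribosomal protein genes (x axis) in 42 tumours; red circles are BXCL701, grey dots vehicle on days 1 and 7, black dots vehicle on day 14. Snhg12 and Snhg8 climb along the x axis (r 0.835 and 0.841), Gas5 has r 0.473 with and 0.231 without the 2 farthest tumours, and Snhg4 slopes down (r -0.340).

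Snhg12, Snhg8, Snhg6 and, less closely, Snhg5 followed the transcript-length index in the opposite sense. Snhg12 had an r of -0.777 and a rho of -0.784 with it, and Snhg8 had -0.739 and -0.681 (permutation p at most 2e-05, adjusted at most 8e-05). Snhg6 had an r of -0.521 and a rho of -0.501 (permutation p = 0.00058 and 0.00079, adjusted 0.00155 and 0.00211). Without the 2 tumours farthest from the median r was -0.748, -0.646 and -0.538, and within groups -0.844, -0.741 and -0.468. Snhg5 had an r of -0.352 (permutation p = 0.0226, adjusted 0.0362) and a rho of -0.300 (p = 0.0553, adjusted 0.111), with r of -0.322 without the 2 farthest tumours and -0.592 within groups. Snhg4 was the only one of the 8 with a positive r, 0.391 (permutation p = 0.0102, adjusted 0.0204), beside a rho of 0.244 (p = 0.12, adjusted 0.164) and an r of 0.221 without the 2 farthest tumours and 0.399 within groups. Gas5, Snhg1 and Snhg3 had r of -0.301, -0.169 and -0.144 with the index, and none of them passed (permutation, adjusted p = 0.0739, 0.321 and 0.364). Ribosomal protein genes are short, and the index is computed from many genes of the same libraries, so both measures share their source.

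On day 14 several related lists ran in the same direction as the 8 hosts, again as a description. All 79 ribosomal protein genes were lower in BXCL701 than in vehicle tumours (median -0.50), as were all 16 translation factors with a TOP start (median -0.34) and all 8 snoRNP core proteins (median -0.28). The mean log2 level of the ribosomal protein genes was 13.79, 14.44 and 13.79 in vehicle, highest in replicate 2, and 13.22 to 13.81 in BXCL701 tumours. The medians of these lists were not computed without that replicate. Among 9 further non-coding hosts that could be tested, 7 were lower, with a median of -0.25. Zfas1, which hosts box C/D snoRNAs, was at 1068, 1963 and 975.1 in vehicle, highest in replicate 2, with a difference of -0.67 ± 0.14, and Epb41l4aos was at 334.4, 626.6 and 230.1 with -0.96 ± 0.23. Without vehicle replicate 2 these differences were -0.36 and -0.57. By contrast the 13 genes of ribosome biogenesis and Myc were split, 7 higher and 6 lower (median 0.01), as were 10 factors of nonsense-mediated decay, 6 higher and 4 lower (median 0.13), and 12 genes of the integrated stress response, 6 and 6 (median 0.03). On day 7 the ribosomal protein genes lay on the other side, with 77 of 79 higher in BXCL701 tumours (median 0.31), 0 of them passing by limma. Their mean log2 level was 13.49, 13.01 and 13.39 in vehicle, lowest in replicate 2, and 12.78 to 14.56 in BXCL701 tumours. On day 1 78 of 79 were lower (median -0.33), 0 passing. There the mean level was 13.56, 14.40 and 13.72 in vehicle, highest in replicate 2, and 13.36 to 13.93 in BXCL701 tumours. The ranges overlapped on both days.

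The genes whose levels most resembled the mean of the 8 hosts over the 42 tumours were Rpl5, a 60S ribosomal protein whose gene also hosts snoRNAs (r = 0.83), and Zfas1 (r = 0.81). They were followed by Mrps10, Usmg5, Mphosph6, Apopt1, mt-Nd6, Snhg15, Prdx1 and Ndufc2, at r of 0.78 to 0.74. Snhg15 is a further snoRNA host, and Mrps10 encodes a mitochondrial ribosomal protein. Within groups these 10 kept r of 0.50 to 0.81. Nearest to Gas5 alone were Sf3b6, a spliceosome subunit (r = 0.86), Cox16, a factor of cytochrome oxidase assembly (0.84), and Tmem9b (0.84).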

How the data were processed

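RNA from 42 Pan02 tumours (14 groups of 3 separate animals) was sequenced in bulk. The submitters' processing notes name Trimmomatic 0.36, Bowtie 0.12.9 and the build GRCm38; how reads were quantified, annotated, scaled and assigned to strands is not given there. The authors deposited, as a table of counts, signal values that are not whole numbers, read here as estimated reads scaled per library, so that read depth is unknown and no interval for counting error is given. The log2 FPKM values the authors deposited served as an alternative and for levels per length. A count test was planned for raw counts alone, so limma 3.58.1 (R 4.3.3, statmod 1.5.0) was used instead.

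Values were transformed as log2(value + 1) after a filter that kept the 16613 of 47729 genes reaching 10 in 3 or more libraries. The model had 14 group coefficients and 28 residual degrees of freedom, with an intensity trend and robust moderation; hours pooled in a comparison had equal weight. P-values were adjusted by Benjamini-Hochberg over the 16613 genes of each comparison, with a threshold of 0.05. The log2 scale with a pseudocount understates changes of low genes. The fit was tested on simulated data.

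The 8 members, the lists and the length index (over 11491 genes with a mean level of at least 100) were chosen with earlier results of these data known. Of 14 comparisons 9 were tested, and the 5 that set day 14 tumours against vehicle or another day are described only. Besides the members, the genes named are up to 4 of each list that passed in a comparison, in order of p, the carcinoma markers, and the 10 genes that correlate best with the members' mean (3 for Gas5), predicted models left out. Differences between days of an effect, hour steps by day, counts of tumours beyond another group, the correlation with ribosomal protein level and a fit without 4 libraries of extreme length index were added after the data were seen. Older symbols of Rack1, Snu13, Zfas1 and Snhg15 were matched, and of duplicate Dancr entries the one of highest mean was used. Correlations had two-sided permutation tests (100000 resamples, scipy 1.17.1), adjusted over the 8 members for each measure. The permutations did not keep tumours within their groups, and day 14 tumours were included. Alternatives were median-of-ratios scaling, a pseudocount of 5, no filter, the FPKM values, the comparison's libraries alone, added covariates, and each library left out.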

Additional observations from a re-analysis of the deposited data

How the results depend on the processing

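No paired analysis was possible because the replicate numbers follow accession order and each tumour is from its own animal. With a pseudocount of 5 every count of genes past the threshold stayed within 1.5 times, and every median difference of the 8 host genes within the spread between replicates. The counts of genes past the threshold that moved further, and the median differences of the host genes that did, are as follows, and the cause was not tested. Median-of-ratios scaling gave 86 genes from 1 to 8 h and 77 for BXCL701 day 7 versus day 1 (56 and 20 as reported), and 1 host gene each from 8 to 16 h and for day 7 versus day 1. With no filter the genes numbered 2, 11 and 10 for treatment on day 1, day 7 and day 7 at 0 h, 76 on day 14 at 0 h, 7, 18 and 29 for vehicle day 7 versus 1, 14 versus 7 and 14 versus 1, and 11 and 5 for BXCL701 day 7 versus 1 and 14 versus 7. The FPKM table gave 0 for treatment on day 7 and 1 for vehicle day 14 versus 1. The comparison's own libraries gave 0 for treatment on day 7 and on day 14 at 0 h, for 1 versus 0 h and for vehicle day 14 versus 1, 1 for treatment on day 14 and for BXCL701 day 14 versus 7, 26 and 14 for 8 versus 1 h and 16 versus 8 h, and 500, with 1 host gene, for BXCL701 day 7 versus 1. Muscle and keratinocyte covariates gave 0 for treatment on day 7, 12 for 16 versus 1 h and 11 for BXCL701 day 7 versus 1.

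The length index in the model turned the median host gene difference on day 7 from 0.02 to -0.15, and gave 0.30 for vehicle day 7 versus 1 (0.14 as reported) and 0.44 for vehicle day 14 versus 7 (0.62 as reported). Its gene counts were 0 for treatment on day 7, 2967 on day 14 and 1107 on day 14 at 0 h, 18 and 301 for vehicle day 14 versus 7 and versus 1, 325, 215 and 46 for 8 versus 1, 16 versus 8 and 16 versus 1 h, and 594 for BXCL701 day 7 versus 1, with 2 host genes from 8 to 16 h and 1 for day 7 versus 1. Without the 4 libraries of extreme length index, chosen after seeing the data, the vehicle day 7 versus 1 median was 0.31, and genes numbered 0 for treatment on day 7 and 1 versus 0 h, 1018 for treatment on day 14, 2 for vehicle day 14 versus 1, 152 and 29 for 8 and 16 versus 1 h, and 5 for BXCL701 day 14 versus 7.

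Leaving out 1 library at a time, the genes past the threshold ranged from 0 to 2 for treatment on day 7, 1 to 2021 on day 14, 0 to 1253 on day 14 at 0 h, 0 to 1296 and 0 to 1018 for vehicle day 14 versus 7 and versus 1, 2 to 3 for BXCL701 day 14 versus 7, 0 to 3 from 0 to 1 h, 35 to 101 from 1 to 8 h, 18 to 38 from 8 to 16 h, 11 to 20 from 1 to 16 h and 7 to 172 for BXCL701 day 7 versus 1; host genes ranged from 0 to 1 in the last comparison and from 8 to 16 h. The median host gene difference ranged from -0.62 to -0.40 on day 14, -0.58 to -0.33 on day 14 at 0 h, 0.47 to 0.68 and 0.45 to 0.74 for vehicle day 14 versus 7 and versus 1, -0.01 to 0.09 on day 1 and -0.10 to 0.06 on day 7. Read depth is unknown, so what it limits cannot be given.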
